A study of Sus scrofa with 24 samples.

Results

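Muscle of 6 barrows (castrated male pigs) was compared with muscle of 6 gilts (young females), all fed a saturated fat. These are 12 of the 24 pigs of a study of dietary fats, chosen as every pig whose label names beef tallow or coconut oil. Each group of sex and fat held 3 pigs: barrows fed beef tallow (pigs 16, 21 and 24), gilts fed beef tallow (pigs 2, 8 and 10), barrows fed coconut oil (pigs 15, 20 and 23) and gilts fed coconut oil (pigs 1, 5 and 6). Pigs go by the running number of their label. All were crosses of Landrace, Large White and Duroc, weighed about 71 kg at about 130 days of age when they were put on the diets, and ate feed with 3.0% of the named fat. No group without an added fat is among the 24 pigs. The other 12 pigs, 6 barrows and 6 gilts, ate olive or soybean oil and are called the unsaturated oil pigs. Barrows differ from gilts both in sex and in castration, and these cannot be told apart here. Every gilt has a lower running number than every barrow, and what the numbers follow is not stated. Anything that followed this order cannot be told apart from sex either. The muscle was longissimus dorsi, the long loin muscle, and total RNA was measured on 1 porcine Affymetrix array per pig.

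Muscle fibres draw energy from fatty acids and from glucose. Lipases free fatty acids from stored triglyceride or from blood lipoproteins, carrier proteins bring them to the mitochondria, and beta-oxidation breaks them down there, while glycolysis breaks down glucose and glycogen in the cytosol. Slow fibres rely mostly on oxidation and fast fibres mostly on glycolysis, and the pig loin is a largely fast muscle. Barrows are known to lay down more fat than gilts, and fat cells between the fibres make much of the fatty acid synthase and desaturase found in pork.

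Values are probe set signals, the brightness of a set of probes for 1 transcript, and the 3 values given per sex are the lowest, the median and the highest of 6 pigs. Differences are barrow minus gilt on the log2(signal + 1) scale, ± SE, with the fat as a covariate, 6 pigs per sex. A gene is said to have risen or fallen in barrows only where its limma adjusted p was under 0.05 over all 14399 tested probe sets, and other genes are given as values. Median array signals were 138 to 174 in barrows and 148 to 157 in gilts, and the log2 medians differed by 0.0012 (exact permutation of the sexes within each fat, two-sided p = 0.98, n = 6). The 3'/5' ratios of GAPDH and actin, which track RNA integrity, had exact permutation p of 0.74 and 0.82 (n = 6), with the highest actin ratio in barrow pig 16 (1.84 on the log2 scale). Mean correlations of an array with the other 11 were 0.922 to 0.944 in barrows and 0.936 to 0.949 in gilts (exact permutation p = 0.085, n = 6). The summed signal of 7 muscle fibre markers, which checks the tissue, was 229040 to 341380 in barrows and 248213 to 306254 in gilts. Of 3 tested Y-linked probe sets, 1 separated all barrows from all gilts. In whole muscle, fewer cells of a type and less RNA per cell cannot be told apart.

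In barrows, 7 of 5066 tested autosomal genes rose (0.138%) and 15 fell (0.296%), when each gene was read from its brightest probe set. Counted over all 6861 autosomal probe sets with a single gene symbol, 36 passed (0.525%), 13 higher (0.189%) and 23 lower (0.335%), which stand for 12 and 19 genes. The 36 are part of 75 calls among the 14399 probe sets (0.521%), and 31 of the 75 have no gene symbol. At an unadjusted p under 0.05, 618 autosomal genes differed (12.2%). In 30 of the 36 probe sets the 6 barrows lay wholly above or wholly below the 6 gilts (1.18% of all autosomal genes did so), which the choice of these probe sets by the same difference largely fixes. The number of calls rested on which pigs were kept. Leaving out pig 6, 8 or 23 gave 8 autosomal probe sets, and pig 5 gave 9. The count was 11, 16, 17, 20 and 21 when pig 15, 10, 21, 16 or 1 was removed in turn, and 24 for pig 20 or 24. Removing pig 2 gave 57. Probe sets of 6 genes passed in all 12 of these runs: EGF, SLC37A4, TMEM120A, PLBD1, ZC3H11A and FOLH1B. For TMEM120A and FOLH1B the limma adjusted p reached 0.048 in these runs, and their calls were lost with no signal filter. In a fit of all 24 arrays, FOLH1B and the brightest TMEM120A set did not pass (limma adjusted p = 0.0739 and 0.0699).

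**Figure D1:**
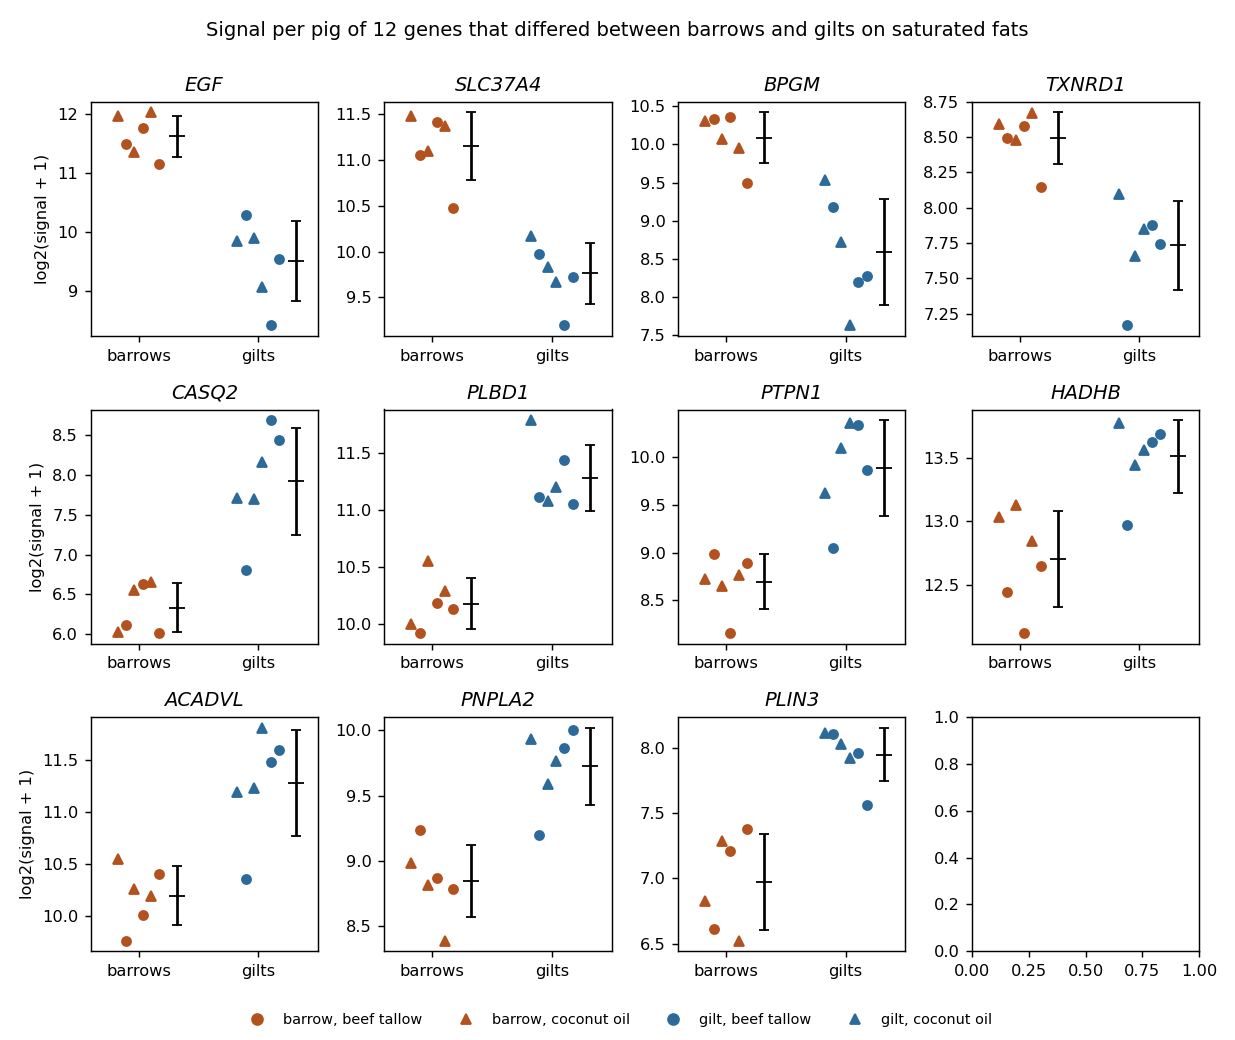
Signal per pig, as log2(signal + 1), of genes past the threshold, barrows left and gilts right. The genes are EGF, SLC37A4, BPGM, TXNRD1, CASQ2, PLBD1, PTPN1, HADHB, ACADVL, PNPLA2 and PLIN3. Circles are beef tallow pigs, triangles coconut oil pigs, and bars give the mean ± SD of 6 pigs. For EGF the lowest barrow (2279 signal units) lies above the highest gilt (1255), while for HADHB, ACADVL, PNPLA2 and BPGM the groups overlap.

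Most genes of fatty acid oxidation had lower values in barrows, and 1 of 21 fell by its brightest probe set. HADHB encodes the beta subunit of the trifunctional protein, which carries out the last steps of each round of beta-oxidation on long chains. Its signals were 4469.9, 6896 and 8955 in barrows, against 8041, 12328 and 13979 in gilts. The highest barrow lay above the lowest gilt, so the groups overlapped, but all 6 barrows were below the gilt mean. HADHB fell by 0.80 ± 0.16 on the log2 scale, a 1.75-fold difference (limma adjusted p = 0.049), a second probe set fell by 0.84 ± 0.17 (adjusted p = 0.0496), and another differed by -0.65 (adjusted p = 0.0662). ACADVL, the acyl-CoA dehydrogenase that opens beta-oxidation of very long chains, had signals of 2619.8, 4884 and 7528 in barrows, against 5650.3, 9932 and 11033 in gilts on its brighter probe set. That set differed by -0.99 ± 0.23 (adjusted p = 0.0838), and its dimmer set fell by 1.08 ± 0.21 (adjusted p = 0.0487). HADHA, the partner subunit of HADHB, had signals of 1690.1, 2776 and 4743 in barrows, against 4426, 5515 and 7062 in gilts. It differed by -0.96 ± 0.20 and just missed the threshold (adjusted p = 0.0512). When 1 pig was left out in turn, the difference stayed between -0.88 and -0.72 for the brightest HADHB set and between -1.26 and -0.98 for the dimmer ACADVL set. With 11 pigs, both passed in the run without pig 2 (adjusted p = 0.0281 and 0.00496) and in none of the other 11 runs (adjusted p up to 0.136 and 0.136).

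CPT1B, the carrier step that lets fatty acids into muscle mitochondria, had signals of 1024, 2113 and 2643 in barrows, against 2023, 3122 and 3362 in gilts, a difference of -0.67 ± 0.22 that did not pass (adjusted p = 0.212). Of the 21 tested genes of the oxidation list, 20 had a negative difference and 1 (HSD17B4, 0.21) a positive one, 1 fell, 0 rose and 20 did not pass. The list median was -0.40, beside -0.01 over all tested autosomal genes, of which 2455 were positive and 2611 negative. At an unadjusted p under 0.05, 12 of the 21 were lower and 0 higher, where 6.63% of all autosomal genes were lower and 5.57% higher. Members of a list can vary together from pig to pig, so these are not separate results. The lists were also chosen with earlier results of these data known, so the shares are not an independent comparison. The median was -0.42 in the beef tallow pigs and -0.36 in the coconut oil pigs, and between -0.45 and -0.33 in the runs without 1 pig. Gilt pig 2, fed beef tallow, was low for several of these genes: its ACADVL signal was 5650.3 and its CPT1B signal 2023, where the other gilts had at least 9336 and 2850.3.

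**Figure D2:**
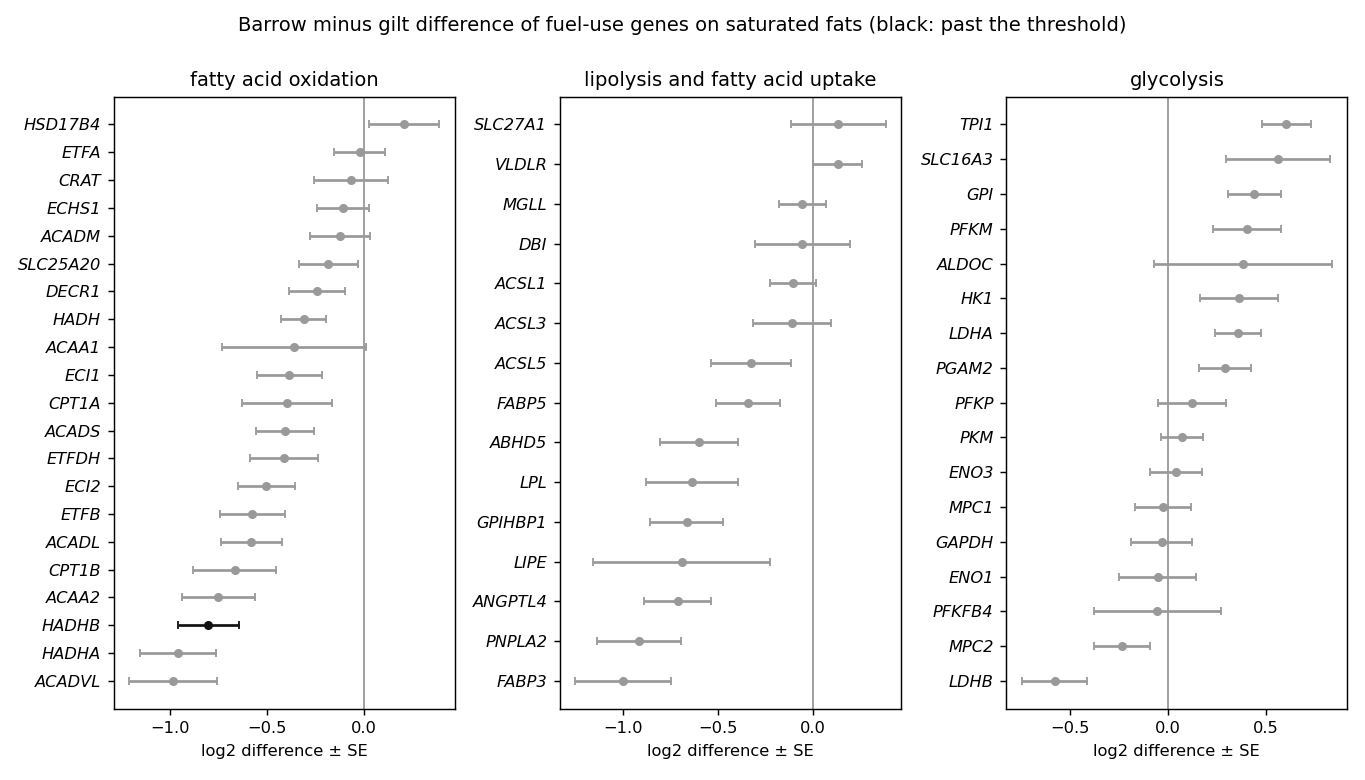
Barrow minus gilt log2 difference ± SE (horizontal axis) of each tested gene of fatty acid oxidation, of lipolysis and fatty acid uptake, and of glycolysis, from its brightest probe set; black marks a gene past the threshold. In the first panel 20 of 21 genes lie left of 0 and only HADHB is black, in the second 13 of 15 lie left, and in the third 11 of 17 lie right.

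PNPLA2 and PLIN3, genes of stored fat, fell in barrows. PNPLA2 encodes adipose triglyceride lipase, which makes the first cut in stored triglyceride. The probe set that passed had signals of 335, 459 and 601 in barrows, against 587, 899 and 1021 in gilts, overlapping by 1 barrow and 1 gilt. It fell by 0.88 ± 0.17 (limma adjusted p = 0.0435), while the brighter PNPLA2 set, with 2238, 3908 and 5723 in barrows, against 5123, 7256 and 8922 in gilts, differed by -0.92 ± 0.22 (adjusted p = 0.0984). PLIN3 encodes perilipin 3, a coat protein of lipid droplets. Its signals were 90.9, 129.8 and 165 in barrows, against 188, 254 and 276 in gilts, with no overlap, and it fell by 0.98 ± 0.18, a 1.97-fold difference (adjusted p = 0.0312). The lowest PLIN3 barrow lay under the signal filter. The PNPLA2 call was lost in 10 of 12 runs without a pig (kept without pig 2 or 16) and the PLIN3 call without pig 1, 5, 6, 8, 15, 16 or 23, with adjusted p up to 0.122 and 0.0876.

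FABP3, the fatty acid carrier of muscle, had signals of 8334, 13972 and 20781 in barrows, against 16225, 29535 and 37635 in gilts. Its difference did not pass (adjusted p = 0.116), but did so without pig 2 (adjusted p = 0.0437). LPL, which frees fatty acids from blood lipoproteins, differed by -0.64 ± 0.24 (adjusted p = 0.287), by -0.03 in the beef tallow pigs and -1.24 in the coconut oil pigs. Its inhibitor ANGPTL4 differed by -0.71 ± 0.18 (adjusted p = 0.111). In the list of lipolysis and fatty acid uptake 13 of 15 genes were negative, 0 passed in either direction, and the median was -0.34 (-0.18 in the beef tallow pigs and -0.47 in the coconut oil pigs). Triglyceride synthesis and lipid droplet genes were mixed, with 9 of 15 negative, 1 fallen (PLIN3) and a median of -0.10. Among them GPD1, which supplies the glycerol backbone, differed by 0.62 ± 0.16, and PLIN2, the main droplet coat protein of many tissues, by -0.58 ± 0.17 (adjusted p = 0.116 and 0.175). DGAT2, which completes triglycerides, differed by 0.83 ± 0.45 (adjusted p = 0.472).

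Fat cell markers did not pass in either direction. FABP4, the fatty acid carrier of adipocytes, had signals of 5114, 9002 and 16802 in barrows, against 6077, 8345 and 24254 in gilts, and ADIPOQ, the adipocyte hormone adiponectin, 324, 1778 and 8017 in barrows, against 679, 1133 and 8944 in gilts. The groups overlapped widely, with differences of -0.17 ± 0.26 and -0.09 ± 0.56 (limma adjusted p = 0.845 and 0.966). LEP, the satiety hormone leptin, differed by 0.17 and PPARG, which drives adipocyte formation, by -0.04, and neither passed. The sign of ADIPOQ, PPARG, FABP4 and LEP changed when single pigs were left out. The summed signal of 9 adipocyte markers was 8895 to 32312 in barrows and 10901 to 43373 in gilts, and 0 of the 9 passed in either direction.

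Genes of fatty acid synthesis varied widely among barrows, and 0 passed. SCD, the desaturase that makes oleic acid, had signals of 286, 3988 and 21572 in barrows, against 243, 315 and 1024 in gilts. FASN, the fatty acid synthase, had signals of 261, 1969 and 8929 in barrows, against 177, 332 and 670.5 in gilts. A few barrows were very high for both, and others lay among the gilts: the 3 beef tallow barrows had SCD signals of 2380.2, 7590.2 and 21572, against 308, 678 and 1024 in the 3 beef tallow gilts. Neither passed, with differences of 2.53 ± 0.77 for SCD and 2.05 ± 0.53 for FASN (limma adjusted p = 0.187 and 0.12). The FASN difference was 3.01 in the beef tallow pigs and 1.08 in the coconut oil pigs, and that of SCD was 3.61 and 1.45, but the test of this difference between the fats did not pass either (unadjusted p = 0.0673 and 0.167). ELOVL6, a fatty acid elongase, and ME1, which supplies NADPH for synthesis, differed by 1.01 ± 0.50 and 0.65 ± 0.22 (adjusted p = 0.418 and 0.238). Of 13 tested synthesis genes 10 were positive and 0 passed. The median was 0.23, with 0.80 in the beef tallow pigs and -0.06 in the coconut oil pigs, and it was 0.09 without pig 21.

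**Figure D3:**
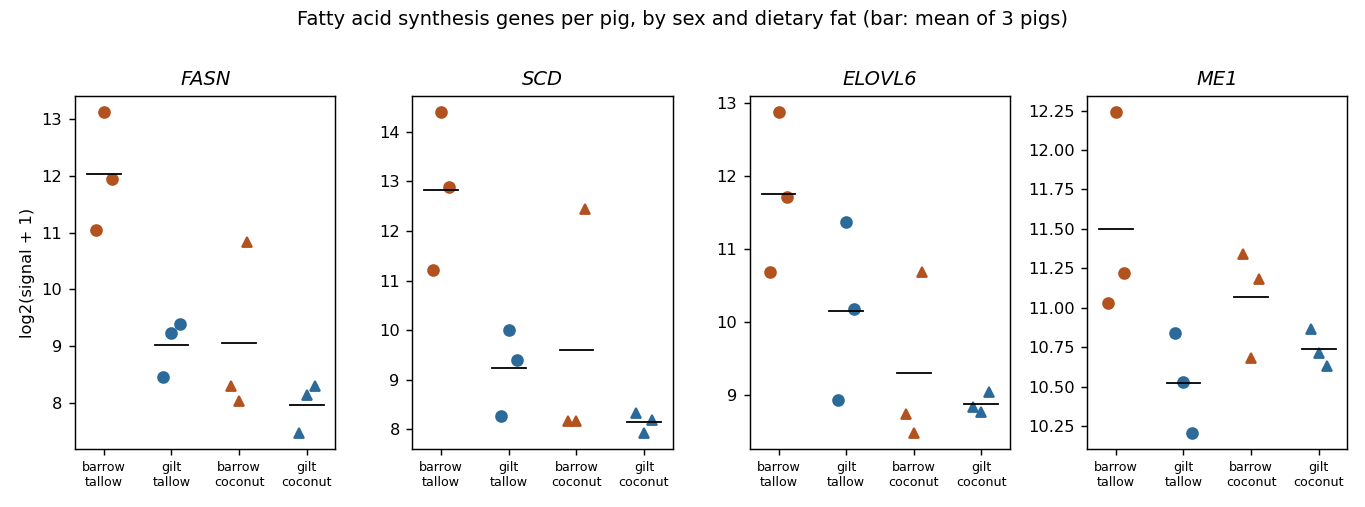
Signal per pig, as log2(signal + 1), of FASN, SCD, ELOVL6 and ME1, with barrows left of gilts within each fat; the bar is the mean of 3 pigs. Of the coconut oil barrows 1 lies far above the other 2 for FASN, SCD and ELOVL6, and all 3 beef tallow barrows lie above the 3 beef tallow gilts for FASN, SCD and ME1.

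Among genes of glucose handling, 2 probe sets of SLC37A4 rose in barrows. SLC37A4 encodes the transporter that carries glucose 6-phosphate into the endoplasmic reticulum, where it can be made into glucose or used to produce NADPH. Its brighter set had signals of 1422, 2414 and 2839 in barrows, against 585, 878 and 1149 in gilts. Every barrow lay above every gilt, and it rose by 1.38 ± 0.18 on the log2 scale, 2.61-fold (limma adjusted p = 0.0037); the other set rose by 1.18 ± 0.19 (adjusted p = 0.0189), a call lost without pig 5, 6, 8, 15 or 23. PTPN1 encodes the phosphatase PTP1B, which removes phosphate from the insulin receptor. Its signals were 285, 427 and 507 in barrows, against 527, 1012 and 1314 in gilts, without overlap, and it fell by 1.19 ± 0.22 (adjusted p = 0.039). That call was lost without pig 5, 6, 8, 10, 15, 20, 21 or 23, with adjusted p up to 0.108. PDPK1, the kinase that activates AKT downstream of insulin, was looked up after its values were seen. Its dimmer probe set rose by 0.65 ± 0.11 (adjusted p = 0.0179, signals 392 to 451 in barrows and 211 to 288 in gilts), but its brighter set differed by -0.09 (adjusted p = 0.802). The muscle glucose transporter SLC2A4 differed by -0.56 ± 0.19, TBC1D1, which holds that transporter inside the cell, by -0.82 ± 0.24, and PHKB, a subunit of the kinase that starts glycogen breakdown, by 0.59 ± 0.17 (adjusted p = 0.248, 0.177 and 0.176). The 11 genes of glycogen and glucose uptake had a median of 0.00.

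BPGM, which makes 2,3-bisphosphoglycerate from an intermediate of glycolysis and is most abundant in red blood cells, had signals of 722, 1173 and 1310.1 in barrows, against 197, 366 and 740.4 in gilts. The lowest barrow lay just under the highest gilt. BPGM rose by 1.497 ± 0.29, 2.82-fold (limma adjusted p = 0.0437), a call lost in 9 of 12 runs without a pig (kept without pig 1, 2 or 24; adjusted p up to 0.132). Of 11 listed erythrocyte markers 2 were tested, and they differed by -0.15 and 0.27 without passing. Their summed signals were 742 to 1006 in barrows and 851 to 1057 in gilts. A part of blood in the BPGM difference was not tested. TPI1, triose phosphate isomerase, had 21735, 25449 and 29781 in barrows, against 13667, 17426 and 19723 in gilts and did not overlap, but its difference of 0.60 ± 0.13 missed the threshold (adjusted p = 0.0574) and passed without pig 2 alone among these runs (adjusted p = 0.0357). GPI, the isomerase of the second step, differed by 0.44 ± 0.13, and LDHB, the lactate dehydrogenase subunit of oxidative tissue, by -0.58 ± 0.17 (adjusted p = 0.192 and 0.171). Of 17 glycolysis genes, 11 were positive and 0 passed; the median was 0.12, and between 0.01 (without pig 2) and 0.25 (without pig 5).

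GAPDH, a glycolysis enzyme with many near-identical copies in mammalian genomes, gave unequal values on its probe sets. One GAPDH set rose by 0.94 ± 0.16 (limma adjusted p = 0.0231), with signals of 18343, 23657 and 27084 in barrows, against 9387, 11909 and 15884 in gilts. The 2 brightest GAPDH sets differed by -0.03 and 0.06 (adjusted p = 0.957 and 0.9), and the 9 GAPDH control sets of the array by -0.03 to 0.03. A much dimmer GAPDH set differed by 0.52 (adjusted p = 0.368). What the rising set measures was not tested. TXNRD1, the thioredoxin reductase of the cytosol, had the same kind of split: 1 set rose by 0.76 ± 0.15 (adjusted p = 0.0435) with signals of 283, 369.8 and 406 in barrows, against 143, 222 and 273 in gilts, and the 2 brighter sets differed by 0.18 and 0.29 (adjusted p = 0.596 and 0.409). Of 17 redox and detoxification genes, 12 were negative, 0 passed by their brightest set, and the median was -0.15. GSR, glutathione reductase, differed by -0.47 ± 0.17, PRDX3, a mitochondrial peroxiredoxin, by -0.23 ± 0.12 and GPX1, a glutathione peroxidase, by 0.33 ± 0.18 (adjusted p = 0.255, 0.439 and 0.461). The GAPDH call was lost in 7 and the TXNRD1 call in 9 of 12 runs without a pig.

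The lists of energy sensing, oxidative phosphorylation and the tricarboxylic acid cycle gave no calls. PRKAA2, the catalytic subunit of the energy sensor AMPK that prevails in muscle, had signals of 1989, 2621 and 3936 in barrows, against 914, 1601 and 2356 in gilts, a difference of 0.80 ± 0.20 (limma adjusted p = 0.116; 0.0138 without pig 2). UCP3, an uncoupling protein of muscle mitochondria, and PDK4, which keeps pyruvate out of the mitochondria when fat is burnt, differed by 0.75 ± 0.35 and -0.29 ± 0.17 (adjusted p = 0.385 and 0.493). PPARGC1A, the coactivator of mitochondrial genes, differed by -0.67 ± 0.30, and PRKAG3, the AMPK subunit known for its effect on pork glycogen, by 0.39 ± 0.22 (adjusted p = 0.37 and 0.482). Oxidative phosphorylation genes were negative in 14 of 19 cases with a median of -0.14, and COX7A1, the muscle form of a cytochrome oxidase subunit, differed by -0.48 ± 0.22. NDUFV2 of complex I and UQCRB of complex III differed by -0.25 ± 0.14 and -0.24 ± 0.14 (adjusted p = 0.37, 0.475 and 0.492 for these 3). Dimmer NDUFV2 sets differed by 0.28 and -0.19 (limma adjusted p = 0.49 and 0.835). Among 21 genes of the tricarboxylic acid cycle 13 were negative (median -0.06), with ME3, a mitochondrial malic enzyme, at -0.64 ± 0.18 and MDH2, mitochondrial malate dehydrogenase, at -0.44 ± 0.16 (adjusted p = 0.172 and 0.259). IDH2, mitochondrial isocitrate dehydrogenase, was at -0.27 ± 0.15 (adjusted p = 0.454).

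For amino acids, 15 of 20 genes were positive (median 0.07, 0 passed). PSPH, the last enzyme of serine synthesis, did not overlap, with signals of 258, 372 and 648 in barrows, against 160.0, 204 and 255 in gilts and a difference of 0.88 ± 0.21 (limma adjusted p = 0.0875). ASNS, the asparagine synthetase, and GLUL, the glutamine synthetase, differed by 0.76 ± 0.28 and -0.17 ± 0.19 (adjusted p = 0.273 and 0.756). ALDH4A1, an enzyme of proline breakdown, differed by 0.47 ± 0.18 (adjusted p = 0.285). In cholesterol metabolism 0 of 14 passed and the median was -0.14, although ABCA1, which exports cholesterol from cells, had all 6 barrows below all 6 gilts (415, 472 and 581 in barrows, against 609.8, 668 and 964 in gilts; -0.54 ± 0.14, adjusted p = 0.135). INSIG1, which holds sterol regulatory proteins back, differed by 0.76 ± 0.25 (adjusted p = 0.223), and SREBF2, the transcription factor of sterol synthesis, by 0.46 ± 0.17 (adjusted p = 0.258). The 6 genes of creatine and nucleotide metabolism had a median of 0.13 and no calls, with GAMT, which makes creatine, at 0.24 ± 0.11, AMPD1, the muscle AMP deaminase, at 0.29 ± 0.18 and PNP, a purine phosphorylase, at 0.21 ± 0.17 (adjusted p = 0.393, 0.553 and 0.66).

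**Figure D4:**
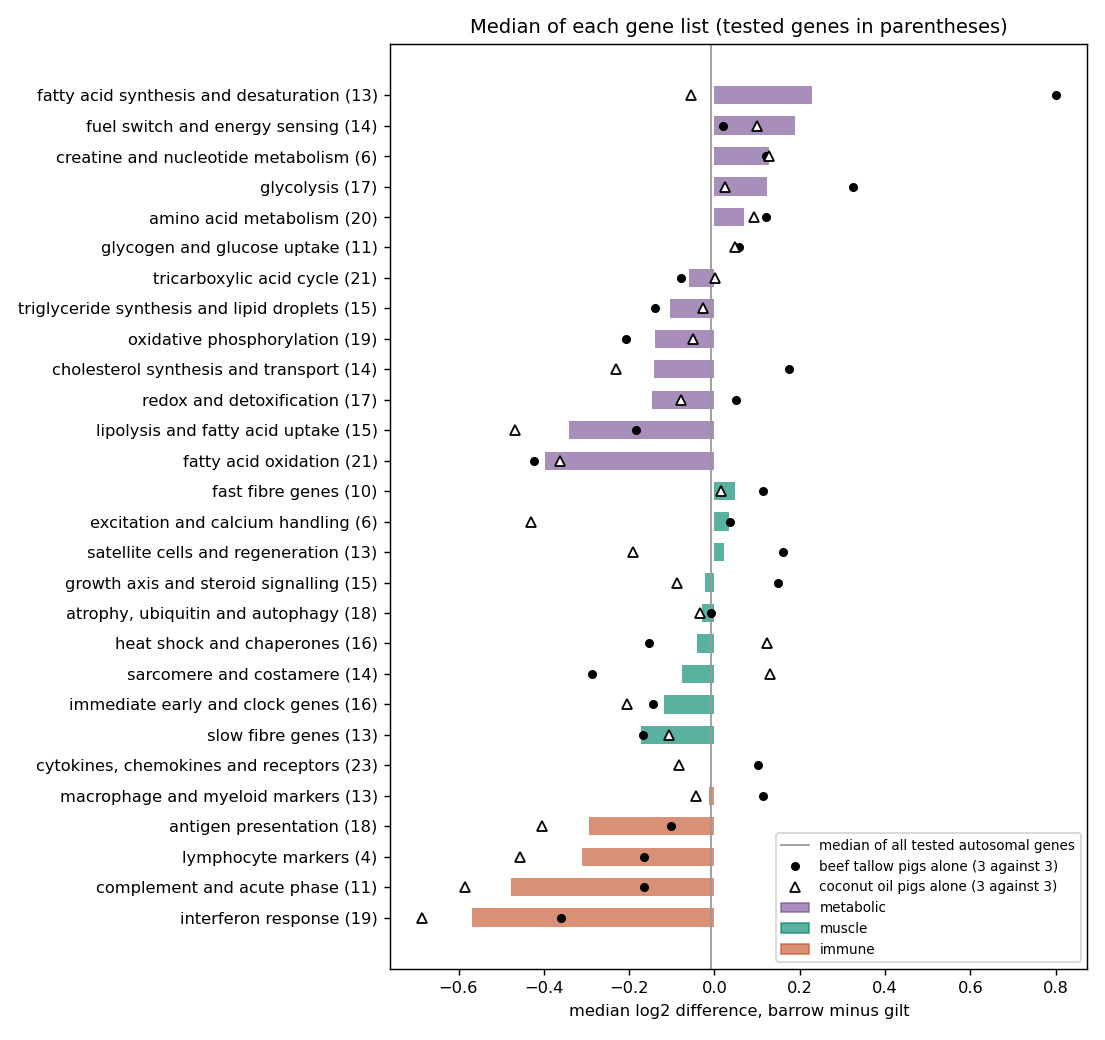
Median barrow minus gilt log2 difference of each gene list (bars), with the number of tested genes in parentheses; dots give the beef tallow pigs alone, triangles the coconut oil pigs alone, 3 barrows and 3 gilts each. Medians run from -0.57 for interferon response to 0.23 for fatty acid synthesis, which is at 0.80 with beef tallow and -0.06 with coconut oil.

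Of the fibre type genes, CASQ2 changed. CASQ2 is the calsequestrin of heart and slow muscle, which stores calcium in the sarcoplasmic reticulum. Its signals were 63.8, 80.8 and 99.8 in barrows, against 111, 247 and 409.7 in gilts. Every barrow lay below every gilt, and CASQ2 fell by 1.58 ± 0.28, 2.99-fold (limma adjusted p = 0.0281), but 4 of the 6 barrows lay under the signal filter of 94.1, where small signals make the fold uncertain. The call was lost without pig 5, 6, 8, 10, 15, 16, 23 or 24 (adjusted p up to 0.0831). Other slow fibre genes did not pass: MYH7, the slow myosin heavy chain, had 29241, 39126 and 46033 in barrows, against 36898, 42900.1 and 47601 in gilts (-0.12 ± 0.13), and the slow troponins TNNI1 and TNNT1 differed by -0.17 ± 0.12 and -0.10 ± 0.15, the last changing sign in 1 of 12 runs without a pig. HSPB7, a small heat shock protein of heart and muscle, and TPM3, the slow tropomyosin, differed by -0.85 ± 0.24 and -0.27 ± 0.14 (adjusted p = 0.17 and 0.447). Of 13 slow fibre genes 11 were negative, 1 fell and the median was -0.17. Of 19 listed fast fibre genes 10 were tested, and the fast myosin genes MYH1 and MYH4 had no probe set with a single gene symbol. Of the 10 tested, 7 were positive, 0 passed and the median was 0.05. MYH2, the fast oxidative myosin, had 7647, 10085 and 12263 in barrows, against 1757, 5087 and 16148 in gilts and differed by 0.94 ± 0.42 (adjusted p = 0.369). ATP2A1, the calcium pump of fast fibres, and TNNT3, the fast troponin T, differed by 0.25 ± 0.13 and 0.23 ± 0.12 (adjusted p = 0.444 and 0.465).

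RFLNA, refilin A, an organiser of actin filaments, fell by 1.07 ± 0.21 (limma adjusted p = 0.0485). It had signals of 161, 262 and 272 in barrows, against 368, 466 and 850.2 in gilts and did not overlap, and among the 12 runs without a pig it passed in the one without pig 2 (adjusted p = 0.0325) and in no other (differences of -1.16 to -0.91). S100A1, a calcium sensor of striated muscle, had 565, 1169.8 and 1633 in barrows, against 1194, 3088 and 6441 in gilts and differed by -1.42 ± 0.35. RCAN1, an inhibitor of the phosphatase calcineurin, differed by -1.07 ± 0.26, ACTC1, the cardiac actin re-expressed in growing fibres, by -1.04 ± 0.27, and MYF6, a regulator of mature fibre genes, by 1.09 ± 0.30 (adjusted p = 0.111, 0.103, 0.121 and 0.145 for the 4 genes). S100A1, RCAN1 and ACTC1 passed without pig 2. MYOD1, which commits cells to muscle, and PPP3CA, the catalytic subunit of calcineurin, differed by -0.63 ± 0.19 and 0.47 ± 0.14 (adjusted p = 0.18 and 0.188). TCAP, which caps titin, LMOD3, which nucleates actin filaments, and CRYAB, a small chaperone of the sarcomere, differed by -0.30 ± 0.13, 0.28 ± 0.14 and -0.30 ± 0.16 (adjusted p = 0.346, 0.432 and 0.446). Satellite cell and regeneration genes had a median of 0.02 over 13 genes, calcium handling genes 0.03 over 6, and sarcomere and costamere genes -0.08 over 14, all with 0 calls.

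EGF had the highest rise among called autosomal genes. EGF encodes epidermal growth factor, a secreted ligand that acts through the EGF receptor. Its signals were 2279, 3189.8 and 4184 in barrows, against 340.2, 828 and 1255 in gilts, so that every barrow lay above every gilt. It rose by 2.12 ± 0.28 on the log2 scale, 4.35-fold (limma adjusted p = 0.0037), by 2.06 in the beef tallow pigs and 2.18 in the coconut oil pigs, and passed in all 12 runs without a pig (adjusted p up to 0.0168). MAP3K3, a kinase that starts MAP kinase cascades, rose by 0.67 ± 0.13 on 1 of 3 probe sets (adjusted p = 0.0435; the other two sets had 0.59 and 1.31, adjusted p = 0.0512 and 0.142), a call lost in 11 of 12 runs.

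The growth axis itself gave no call in 15 genes (median -0.02). IGF1 and IGF2, the insulin-like growth factors, differed by -0.09 ± 0.22 and -0.14 ± 0.14, and MSTN, the brake on muscle growth, by 0.50 ± 0.28. FST, which binds myostatin, differed by 0.19 ± 0.27, and NR3C1, the glucocorticoid receptor, by 0.11 ± 0.18. FBXO32, a ubiquitin ligase of muscle wasting, had 2568, 8583 and 15876 in barrows, against 2630.0, 10221 and 12480.4 in gilts, a difference of 0.02 ± 0.32. FKBP5, a target of that receptor, differed by -0.37 ± 0.31. The smallest unadjusted p in the growth list belonged to HSD17B12, an enzyme of fatty acid elongation and steroids, at 0.79 ± 0.22, THRA, a thyroid hormone receptor, at -0.37 ± 0.14, and IGF2R, which clears IGF2, at -0.43 ± 0.17 (limma adjusted p = 0.162, 0.273 and 0.284). Atrophy and autophagy genes had a median of -0.03 over 18 genes, with the autophagy genes GABARAPL1 and MAP1LC3B at -0.56 ± 0.22 and -0.21 ± 0.14 and CAPN2, a calcium-activated protease, at -0.21 ± 0.12 (adjusted p = 0.294, 0.554 and 0.503). GABARAPL1 passed without pig 2 (adjusted p = 0.0325). Heat shock and immediate early genes, which respond to handling and stress, had medians of -0.04 over 16 and -0.12 over 16 genes, with EGR1 at -1.38 ± 0.50 and DNAJB1 at -1.37 ± 0.43 (limma adjusted p = 0.259 and 0.201). Dimmer EGR1 sets differed by only -0.295 and -0.59 (limma adjusted p = 0.834 and 0.582). The chaperones HSPB6 and HSPA5 were at -0.70 ± 0.19 and -0.56 ± 0.25, and the early response genes KLF4 and IER2 at -0.86 ± 0.38 and -0.59 ± 0.29 (adjusted p = 0.135, 0.363, 0.358 and 0.421).

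Most interferon, complement and antigen presentation genes had lower values in barrows, but 0 genes of these lists passed. Interferon response genes, which cells switch on against viruses, were negative in 17 of 19 cases, with a median of -0.57 (-0.36 in the beef tallow pigs, -0.69 in the coconut oil pigs) and 0 past the threshold. At an unadjusted p under 0.05, 8 of the 19 were lower and 0 higher, where 6.63% of all autosomal genes were lower. Here too members can vary together from pig to pig, and the list was chosen with earlier results of these data known. IFI44L, an interferon-induced protein, had signals of 403, 565 and 948 in barrows, against 532, 998 and 1455 in gilts, a difference of -0.80 ± 0.23 with overlap (limma adjusted p = 0.163). MX1, an antiviral GTPase, had 178, 284 and 709 in barrows, against 262, 728 and 992 in gilts and differed by -0.84 ± 0.36 (adjusted p = 0.355). XAF1 and IFIT2, both induced by interferon, differed by -1.01 ± 0.34 and -0.60 ± 0.21 (adjusted p = 0.231 and 0.25). Complement and acute phase genes were negative in 11 of 11 cases, with a median of -0.48 that was -0.24 without pig 20. C3, the central complement protein, had 123, 257 and 329.8 in barrows, against 296, 558 and 616 in gilts and differed by -1.03 ± 0.26 (adjusted p = 0.111), and C1S, a protease of the first complement complex, by -0.65 ± 0.19 (adjusted p = 0.173). C4A, complement component 4, differed by -0.72 ± 0.22 (adjusted p = 0.186).

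Of 18 antigen presentation genes 15 were negative (median -0.29). SLA-DRA, a chain of the class II molecules of antigen presenting cells, differed by -0.56 ± 0.24, and CD74, their chaperone, by -0.45 ± 0.16 (limma adjusted p = 0.336 and 0.254). SLA-3, a class I heavy chain with close relatives, differed by -0.87 ± 0.33 (adjusted p = 0.273). B2M, the light chain of class I molecules, had 31667, 34546 and 44540.0 in barrows, against 29238, 36759 and 40308 in gilts and differed by -0.02 ± 0.12. The 13 macrophage and myeloid genes had a median of -0.01, with CD163, a receptor of resident macrophages, at 0.10 ± 0.22. MRC1, the mannose receptor of macrophages, LAPTM5, a lysosomal protein of blood cells, and MARCO, a scavenger receptor, were at 0.39 ± 0.23, -0.30 ± 0.23 and 0.44 ± 0.38. The 4 lymphocyte genes had a median of -0.31, with CD40, a receptor of B cells, at -0.28 ± 0.13, JCHAIN, which joins antibodies, at -0.65 ± 0.31 and CD247, a chain of the T cell receptor complex, at -0.34 ± 0.33. For these 6 the limma adjusted p was 0.386 or above. Slightly dimmer CD40 sets differed by -0.52 and 0.25 (limma adjusted p = 0.229 and 0.713). Among 23 cytokine and chemokine genes the median was 0.00, with CXCL12, which guides leukocytes and progenitors, at 0.59 ± 0.15 and CXCL2, which draws neutrophils, at -1.24 ± 0.37 (adjusted p = 0.104 and 0.186). CCL21, a chemokine of lymphatic vessels, was at 1.45 ± 0.43 (adjusted p = 0.177). Without pig 2, a gilt with a CXCL2 signal of 256 where the other gilts had 975 to 1346, CXCL2 passed (adjusted p = 0.00448).

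Other autosomal genes with a role in metabolism or immunity passed outside these lists. Of the calls described above, SLC37A4, PTPN1, BPGM, EGF, RFLNA, MAP3K3 and PDPK1 are in none of the lists either. They were named because they were called, and were placed with a theme by what their products do. PLBD1, a lysosomal protein of the phospholipase B family found in myeloid cells, had signals of 966, 1140.1 and 1497 in barrows, against 2121, 2285 and 3533 in gilts, without overlap. It fell by 1.10 ± 0.15 (limma adjusted p = 0.00518) and by 0.99 ± 0.14 on a dimmer set, both in all 12 runs without a pig, while a further PLBD1 set differed by 0.03 (adjusted p = 0.946). TMEM120A, a nuclear envelope protein needed for fat cell differentiation in mice, had signals of 393, 501 and 663 in barrows, against 738, 1129 and 1254 in gilts. It fell by 1.11 ± 0.17 and, on a dimmer set, by 1.59 ± 0.25 (adjusted p = 0.0129 for both), again in all 12 runs, and another set differed by -0.86 (adjusted p = 0.116). HSDL2, a peroxisomal enzyme of lipid metabolism, fell by 0.96 ± 0.19 on the dimmer of 2 sets (adjusted p = 0.0495; the brighter -1.10, adjusted p = 0.121), lost in 11 of 12 runs. LPGAT1, an acyltransferase of phospholipids, fell by 0.78 ± 0.15 and 0.70 ± 0.14 on 2 sets, and NT5C3A, a pyrimidine nucleotidase, by 0.80 ± 0.16 (adjusted p = 0.0437, 0.0495 and 0.0495). SLC41A1, a magnesium transporter, fell by 0.86 ± 0.15 on its brightest set (adjusted p = 0.0255), and 3 dimmer sets differed by -0.75 to -0.45 without passing (adjusted p = 0.117 to 0.233). IFRD1, a regulator of muscle regeneration, fell by 0.89 ± 0.18 on the brighter of 2 sets (adjusted p = 0.0487; the dimmer -0.55, adjusted p = 0.14). Without 1 pig the calls were lost in 10 and 11 of 12 runs for LPGAT1, 11 for NT5C3A, 8 for SLC41A1 and 11 for IFRD1, and these 4 genes were named after their values were seen. Outside the roles described here, ZC3H11A, BCAR3, PAPOLA, SON and MLEC rose by 0.70 to 1.45 on the probe set that passed, and C9H11orf52, LOC100517502, FOLH1B, GEMIN5 and C17H20orf27 had differences of -0.68 to -2.56 on theirs. Other sets of PAPOLA and SON had differences of the opposite sign, and all 6 barrows lay under the signal filter for C9H11orf52.

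The sex difference was not shown to depend on which saturated fat was fed. In the test of sex by fat 0 of 14399 probe sets passed with limma (0%), and 989 had an unadjusted p under 0.05 (6.87%). Without pig 24, 10 passed, and 1 passed without the signal filter. Centring each array on its median moved the median of this contrast over all probe sets to 0.11, against -0.07 as deposited, so directions between the fats are relative to that shift. LPL had the lowest unadjusted p among the genes always named (0.00663), followed by IGF2, at 0.17 with beef tallow and -0.45 with coconut oil (0.0185).

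The 12 unsaturated oil pigs are separate animals, and the same comparison there gave 25 calls of 14399 (0.174%), 11 of them autosomal (0.16%). Of the 36 autosomal probe sets called with saturated fats, 35 had the same sign with the unsaturated oils, against 60.9% of all tested autosomal probe sets and 60.6% of autosomal genes, of which 48% were positive there. In 24 of the 36 the difference had the same sign and an unadjusted p under 0.05 there, against 12% of all tested autosomal probe sets. The 25 calls were 61 without pig 7 and 103 without pig 9, both gilts, and 14 without pig 3, 14 or 17 and 16 without pig 11 or 18. The 11 autosomal calls were 1 without pig 14, 2 without pig 3, 11 or 17, 3 without pig 18, 4 without pig 4 or 19, 6 without pig 12, 7 without pig 13 or 22, 32 without pig 7 and 55 without pig 9, and 3 without the signal filter. Only the dimmer probe set of PDPK1, with 0.71 ± 0.13, passed in both sets of pigs (limma adjusted p = 0.0486 there). The brighter PDPK1 set differed by -0.09 with the saturated fats. EGF differed by 1.61 ± 0.30, SLC37A4 by 1.33 ± 0.25 and ZC3H11A by 1.04 ± 0.22, each with every barrow above every gilt (adjusted p = 0.0592, 0.0592 and 0.0809). PLIN3 and HSDL2 kept every barrow below every gilt as well, at -0.58 ± 0.16 and -0.97 ± 0.19. FOLH1B (0.05 ± 0.32), IFRD1 (-0.03 ± 0.26) and BCAR3 (0.09 ± 0.30) were near 0 there. Across 5066 autosomal genes the differences of the 2 sets of pigs had a Pearson r of 0.40, a description over genes that share each set's arrays.

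A test of the difference between the 2 classes of fat passed for 0 of 14399 probe sets with limma (0%; 1065 at an unadjusted p under 0.05, 7.4%), so no gene was shown to be particular to the saturated fats. The oxidation list was again negative in 19 of 21 genes (median -0.34), the lipolysis list in 12 of 15 (-0.18), the interferon list in 14 of 19 (-0.84) and the complement list in 10 of 11 (-0.42). MX1 and ABCA1 passed with the unsaturated oils, at -1.56 ± 0.26 and -0.79 ± 0.13 (adjusted p = 0.031 and 0.035). Oxidative phosphorylation had the opposite sign there, with 16 of 19 genes positive and a median of 0.18, as did PPARGC1A at 0.90 ± 0.50. FASN and SCD were again positive, at 1.18 ± 0.56 and 1.69 ± 0.72, while the adipocyte hormone gene ADIPOQ was at -1.51 ± 0.50 and the 13 synthesis genes had a median of -0.22.

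**Figure D5:**
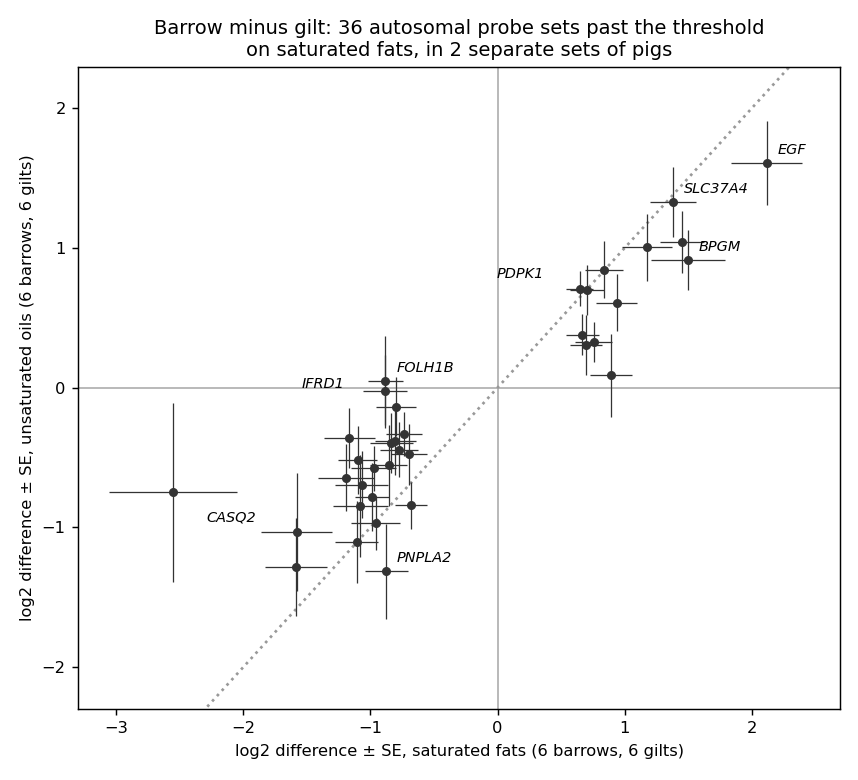
Barrow minus gilt log2 difference ± SE of the 36 autosomal probe sets past the threshold with saturated fats (horizontal axis), beside the same difference in the separate pigs fed unsaturated oils (vertical axis); the dotted line marks equal values. All but FOLH1B have the same sign on both axes, and EGF is highest on both.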

How the data were processed

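Total RNA from longissimus dorsi of 24 pigs was measured on 1 porcine Affymetrix array each. The authors deposited a table of probe set intensity values on a linear scale; how probes were summarised is not stated there or in the labels. All arrays have a 2% trimmed mean near 500.1, so they had been scaled to a common level as deposited. Symbols came from the platform annotation (10069 of 23999 non-control probe sets with 1 symbol, 198 with several, 13732 with none), and 9961 matched a RefSeq gene, which gave the chromosome. Genes on X and Y were left out of the description.

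Intensities were taken as log2(signal + 1). Probe sets with a mean over the 24 arrays of at least 94.1 (the 40th percentile) were tested, 14399 in all. limma 3.58.1 in R 4.3.3 fitted sex with the fat as a covariate on the 12 saturated fat arrays (lmFit and eBayes, two-sided, Benjamini-Hochberg over all tested probe sets, threshold 0.05). The sex by fat interaction, the same contrast in the unsaturated oil pigs and the contrast between the classes were fitted likewise. The pipeline was tested on simulated data. The number of arrays limits the precision, each pig's pen is unknown here, and p-values treat pigs as independent. Array measures used an exact permutation test with 400 relabelings of sex within fat, whose smallest p is 0.005.

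Members and the 35 gene lists, 28 of roles and 7 of cell type markers, were chosen with earlier results of these data known. The autosomal genes named are those of the role lists past the threshold, up to 12 rising and 12 falling genes with the largest differences overall (described where their product acts in metabolism, muscle or immunity), the 3 members of each role list with the smallest unadjusted p, and 35 always named, of which 31 were tested. Every other autosomal gene with a call is named too, whatever the size of its difference. Lists were counted from each gene's brightest probe set. Beside the sums given in the report, summed markers were 56553 to 145283 in barrows and 66570 to 102389 in gilts for fibroblasts and matrix, 7383 to 11954 and 8045 to 12417 for endothelium, 13991 to 29080 and 19689 to 27899 for smooth muscle, and 377 to 1135 and 557 to 3680 for nerve. Alternatives changed the filter, the normalization, the pseudocount, the spread model, array weights and the pigs included.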

Additional observations from a re-analysis of the deposited data

Results flagged for a closer look

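In 30 of 288 sets of 6 pigs of 1 sex, 1 pig lay far from the other 5 by Dixon's criterion on the log2 scale; chance alone flags about 1 in 20 sets. Values are signals. Gilt pig 2, fed beef tallow, was the low pig in 11 sets: TMEM120A at 353 and 738 on 2 probe sets, LPGAT1 at 2266, CXCL2 at 256, MARCO at 20.8, ACADVL at 5650, FABP3 at 16225, GABARAPL1 at 609, EGR1 at 387, CPT1B at 2023 and LPL at 5948. The other 5 gilts had at least 575 and 1055 for TMEM120A and at least 975 for CXCL2. Gilt pig 6, fed coconut oil, was low for UCP3 at 220, ANGPTL4 at 491, NDUFV2 at 7485 and GSR at 185. Among the other gilts, pig 10 was low for PLIN3 at 188 and PDPK1 at 211, pig 1 was high for MLEC at 664 and ASNS at 873, and pig 8 was high for CCL21 at 165 and CRYAB at 41596.

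Among barrows, pig 24 was low for TXNRD1 at 283, MARCO at 51.3 and GPI at 13168. Pig 16 was high for LAPTM5 at 597 and low for ALDH4A1 at 504 and THRA at 980. Pig 15 was low for SREBF2 at 420 and high for ATP2A1 at 38981, and pig 21 was low for IFRD1 at 1863.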

How the results depend on the processing

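Across 24 other settings, 12 of them leaving out a pig, the 36 called autosomal probe sets kept their sign in every one that tested them, and 15 of 105 other named probe sets changed sign in at least 1. No called gene changed sign, which the choice of these probe sets by their difference in the same pigs largely fixes. The count of 75 calls over all probe sets (32 higher, 43 lower) was 32 with no filter (17 higher, 15 lower), 121 with the filter at the 60th percentile, 124 with a trended and robust spread, 130 with array weights, 12 in the beef tallow pigs alone, 12 in the coconut oil pigs alone and between 27 and 119 without 1 pig. The 36 autosomal calls were 9 with no filter, 59 at the 60th percentile, 57 with the trended and robust spread, 60 with array weights, 18 with 1 probe set per gene tested, 4 in the coconut oil pigs alone and 8 to 57 without 1 pig. Only 5 of the 9 with no filter, and 0 of the 4 in the coconut oil pigs alone, were among the 36. In the beef tallow pigs alone limma called 0, with 515 at an unadjusted p under 0.05. The interaction gave 1 call with no filter and 0 to 10 without 1 pig, and its median over all probe sets was 0.11 with median centring, against -0.07. The 25 calls with unsaturated oils, 11 higher and 14 lower, were 40 at the 60th percentile, 45 with the trended and robust spread, 39 with array weights and 14 to 103 without 1 pig; median centring split them 15 higher and 11 lower, and the 11 autosomal ones were 1 to 55 without 1 pig. Of the called probe sets, 8, of 6 genes, passed in every run without a pig. Over all settings 399 values of named genes were no longer past the threshold, 26 newly passed it, and 24 list medians moved by more than the spread between replicates. The cause of these changes was not tested. No paired analysis was possible because the groups share no replicate number: each number is that of 1 pig.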
